A study of Rattus norvegicus with 12 samples.

Results

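The genes described here carry the insulin signal in liver from the receptor to Akt and on to a FOXO1 target: Insr, Irs1, Irs2, Pik3r1, Pik3ca, Akt1, Akt2, Foxo1 and Igfbp1. They were chosen by gene symbol, and all 9 were found among the 16558 genes of the joined count tables. All 9 also passed the filter on low counts that left 12355 genes for testing. The data are RNA-seq of liver from Sprague Dawley rats, with 12 libraries in 4 groups of 3. The normal group was given saline. The other 3 groups received a high-fat diet, given as a model of non-alcoholic fatty liver disease and kept up for 8 weeks in the model group. Of these, the model group has no didymin in its label, and arms D and G received didymin, a citrus flavonoid glycoside, at different doses; the labels do not say which of the arms had the higher dose. Neither age nor sex is given in the labels. Nor do they tie each library to an animal of its own, so the p-values speak only of how far these libraries differ, which may be technical.

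Insulin binds the receptor encoded by Insr, whose tyrosine kinase phosphorylates the docking proteins Irs1 and Irs2. These recruit PI3-kinase, made of a regulatory subunit (p85 alpha, from Pik3r1) and a catalytic subunit (p110 alpha, from Pik3ca), and its lipid product brings Akt1 and Akt2 to the membrane for activation. Active Akt phosphorylates FOXO1 and keeps it out of the nucleus. In fasted liver nuclear FOXO1 drives genes such as Igfbp1, a secreted binding protein for insulin-like growth factors, and Irs2, so that both are low after feeding and high in fasting. The libraries measure mRNA only, and phosphorylation was not analysed here.

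The 250 bases before the start of Igfbp1 and of Insr are shown because both genes are known FOXO1 targets and the FOXO recognition letters lie in each. Sequences are from RefSeq on the rat assembly GRCr8, 5′ to 3′ on the gene's strand, and 8 of the 9 members matched the promoter table; Irs2 had no entry. Capitals mark the only match in each to CAAAACA, the core of the insulin response element, or to GTAAACA, a FOXO consensus, searched on both strands. The first lies at chr14:86261027-86261276 on the plus strand and the second at chr12:6128804-6129053 on the minus strand.
Igfbp1: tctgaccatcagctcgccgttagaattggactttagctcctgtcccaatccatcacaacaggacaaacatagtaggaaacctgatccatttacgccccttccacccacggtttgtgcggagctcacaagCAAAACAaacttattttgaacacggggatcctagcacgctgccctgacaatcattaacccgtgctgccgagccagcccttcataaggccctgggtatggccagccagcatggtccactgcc
Insr: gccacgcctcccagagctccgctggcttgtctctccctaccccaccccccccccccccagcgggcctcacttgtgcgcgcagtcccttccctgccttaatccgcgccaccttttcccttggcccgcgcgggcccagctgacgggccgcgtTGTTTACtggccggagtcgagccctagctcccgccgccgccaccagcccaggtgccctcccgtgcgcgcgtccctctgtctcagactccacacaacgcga
In Igfbp1 the match is CAAAACA, 121 to 115 bases before the start. In Insr it is GTAAACA read on the opposite strand, 100 to 94 bases before the start. Among the other 6 promoters, Pik3ca had a GTAAACA, 157 to 151 bases before its start, and Irs1, Pik3r1, Akt1, Akt2 and Foxo1 had neither motif. CAAAACA was present in 5.46% and GTAAACA in 3.21% of 33469 rat promoters of the same length, so a match is a description of the letters and not a measured site.

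Total counts ran from 12469914 to 15521648 per library, and 13582 to 14591 genes had at least 1 count. All 8 hepatocyte markers passed the filter. Of 7 pancreas markers 1 passed (Cela1, 8.73 to 53.4 CPM) and of 5 adipose markers 1 passed (Cidec, 44.0 to 78.6 CPM). Ins1, Ins2, Gcg, Prss1, Amy2a3, Adipoq and Lep are not listed in the tables, but neither is Pecam1, an endothelial gene, so that a missing symbol is not a measured 0. The share of counts on the 13 mitochondrially encoded genes was 3.85% to 7.88% in 7 libraries. It was over 10% in the other 5: 11.2% in N.3, 16.02% in D.1, 18.8% in M.5, 44.1% in M.6 and 61.0% in G.3. Library M2.1 of the model group carries a name unlike those of M.5 and M.6, for which no reason is given, and it often stood apart from both.

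Insr was lower on average in each high-fat group than in the normal group, but no difference passed the test after adjustment. Values are CPM, that is, counts made relative to library size, with TMM scaling. Among normal rats Insr was at 71.2 CPM in N.1, 68.4 in N.2 and 46.5 in N.3. Libraries M.5, M.6 and M2.1 of the model group had 29.1, 20.6 and 62.1 CPM. Arm D libraries D.1, D.4 and D.7 had 34.6, 39.3 and 33.3 CPM, and arm G libraries G.1, G.3 and G.4 had 37.5, 19.6 and 30.2 CPM. Every library of arms D and G was thus below all 3 normal libraries, and M2.1 alone among the 9 high-fat libraries lay within the normal range. Group means were 62.0 ± 13.6 CPM in normal, 37.3 ± 21.9 in model, 35.7 ± 3.17 in arm D and 29.1 ± 8.99 in arm G (SD, n = 3). The 9 high-fat libraries together were at a log2 fold change of -0.87 ± 0.29 (SE) against normal, a fold of 1.83, with an unadjusted p of 0.0112 and an adjusted p of 0.661 by edgeR's quasi-likelihood test. In bulk liver, fewer cells of a type and less RNA per cell cannot be told apart. Within the 5 libraries with a mitochondrial share over 10%, the normal library (46.5 CPM) was above all 4 high-fat libraries, of which the highest had 34.6 CPM. Within the 7 under 10% both normal libraries were above the highest high-fat value, 62.1 CPM. Either set holds few normal libraries, and the 10% limit was chosen after seeing the data. Whether the mitochondrial share has a part in the Insr values was not tested.

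The docking proteins differed from each other. Irs2 was at 59.9, 98.7 and 39.1 CPM in the normal libraries and at 48.7, 30.1 and 11.2 CPM in M.5, M.6 and M2.1. Arm D libraries had 28.8, 17.6 and 20.1 CPM, all below the lowest normal library, and arm G libraries had 83.2, 39.8 and 22.2 CPM. Arm G therefore spanned most of the range of the whole series, from G.4, near arm D, to G.1, within the normal range. Against normal, the log2 fold change of Irs2 was -1.57 ± 0.56 (SE) in arm D (unadjusted p = 0.0157, adjusted p = 0.599, edgeR), -1.14 ± 0.56 in model and -0.44 ± 0.55 in arm G. Arm G against arm D stood at 1.13 ± 0.56, with overlapping groups and an adjusted p of 0.999 by edgeR. Without G.1 it was at 0.48, and arm G against normal moved from -0.44 to -1.10.

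Irs1 was lower and less separated by group, at 21.4, 21.2 and 6.34 CPM in the normal libraries and 8.43, 11.5 and 23.0 CPM in the model libraries. Arm D had 8.66, 10.2 and 13.4 CPM and arm G 21.1, 5.90 and 10.5 CPM. The normal library N.3 was below all 9 high-fat libraries except G.3, while N.1, N.2, M2.1 and G.1 lay close together at the top. Its log2 fold change for the high-fat libraries against normal was -0.39 ± 0.43 (SE, adjusted p = 0.804, edgeR). The ratio of Irs2 to Irs1 counts within a library does not depend on library scaling. It ran from 2.80 to 6.16 in normal, 0.488 to 5.78 in model, 1.496 to 3.33 in arm D and 2.11 to 6.75 in arm G. Irs2 counts were below Irs1 counts in M2.1 and in no other library.

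The regulatory subunit of PI3-kinase tracked Insr more than its catalytic partner did. Pik3r1 was at 66.6, 46.0 and 26.7 CPM in the normal libraries and at 22.5, 14.3 and 67.5 CPM in the model libraries, so that M2.1 had the highest value of all 12. Arm D had 14.8, 17.5 and 23.4 CPM, all below normal, and arm G 27.1, 21.0 and 15.3 CPM, with G.1 just above N.3. Log2 fold changes against normal were -1.32 ± 0.51 (SE) in arm D (unadjusted p = 0.0238, adjusted p = 0.663, edgeR) and -1.13 ± 0.51 in arm G (unadjusted p = 0.0458, adjusted p = 0.723). The model group was at -0.41 ± 0.50, and at -1.34 ± 0.41 without M2.1 (adjusted p = 0.175). Pik3ca was nearly level, at 20.8 ± 2.69 CPM in normal, 23.4 ± 6.36 in model, 20.02 ± 4.48 in arm D and 21.1 ± 5.16 in arm G (SD, n = 3). Its 7 log2 fold changes were between -0.22 and 0.17. Counts of Pik3r1 exceeded those of Pik3ca by 1.12 to 3.57 times in the normal libraries, and the ratio was 0.511 to 4.19 in model, 0.602 to 1.18 in arm D and 0.749 to 1.67 in arm G.

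Of the Akt kinases, Akt1 varied little and Akt2, the isoform most tied to insulin action in liver, varied more. Akt1 was at 61.5, 60.1 and 70.5 CPM in normal, 63.4, 56.4 and 56.2 in model, 65.5, 64.5 and 63.0 in arm D and 53.1, 40.5 and 66.8 in arm G. The lowest value was that of G.3, the library with the highest mitochondrial share, and the other 11 lay between 53.1 and 70.5 CPM. The biological coefficient of variation of Akt1, edgeR's estimate of the spread within groups, was 0.227, a value at percentile 3.46 of all genes tested. Akt2 was at 58.8, 54.9 and 37.6 CPM in normal, 18.1, 29.3 and 51.5 in model, 22.8, 35.6 and 39.7 in arm D and 40.4, 17.1 and 40.1 in arm G. M2.1 was again the highest of the high-fat libraries, and the normal library N.3 lay below M2.1, D.7, G.1 and G.4. Akt2 in the high-fat libraries was at a log2 fold change of -0.62 ± 0.33 (SE) against normal (unadjusted p = 0.0795, adjusted p = 0.791, edgeR), and Akt1 at -0.13 ± 0.18.

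Foxo1, the transcription factor that Akt restrains, had the fewest counts of the 9 genes and the widest spread. It was at 15.4, 13.0 and 2.39 CPM in the normal libraries and at 2.11, 3.69 and 24.3 CPM in the model libraries. Arm D had 4.12, 6.14 and 7.26 CPM and arm G 8.37, 3.52 and 4.78 CPM. The highest and the second lowest library of the series were thus M2.1 and N.3, and the lowest was M.5, of the same group as M2.1. The log2 fold change of model against normal was -0.02 ± 0.81 (SE), and -1.83 ± 0.69 without M2.1 (adjusted p = 0.202, edgeR), so the group mean rests on that library. Its coefficient of variation, 0.674, was at percentile 93.3.

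Igfbp1, the FOXO1 target, was at 669, 1194 and 1043 CPM in normal and 345, 886 and 209.7 CPM in M.5, M.6 and M2.1. Arm D had 724, 344 and 378 CPM and arm G 1369.5, 922 and 377 CPM. The lowest library was M2.1, in which Foxo1 was highest, and the highest was G.1. Against normal, log2 fold changes were -1.01 ± 0.57 (SE) in model, -1.01 ± 0.57 in arm D and -0.12 ± 0.57 in arm G, with adjusted p-values of 0.866, 0.900 and 0.955 by edgeR. Arm G against model was at 0.89 ± 0.57 and against arm D at 0.88 ± 0.57, neither past the threshold, and G.4 lay with the lower arm D libraries. Arm G against model ran from 0.43 without G.1 to 1.68 without M.6.

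**Figure D1:**
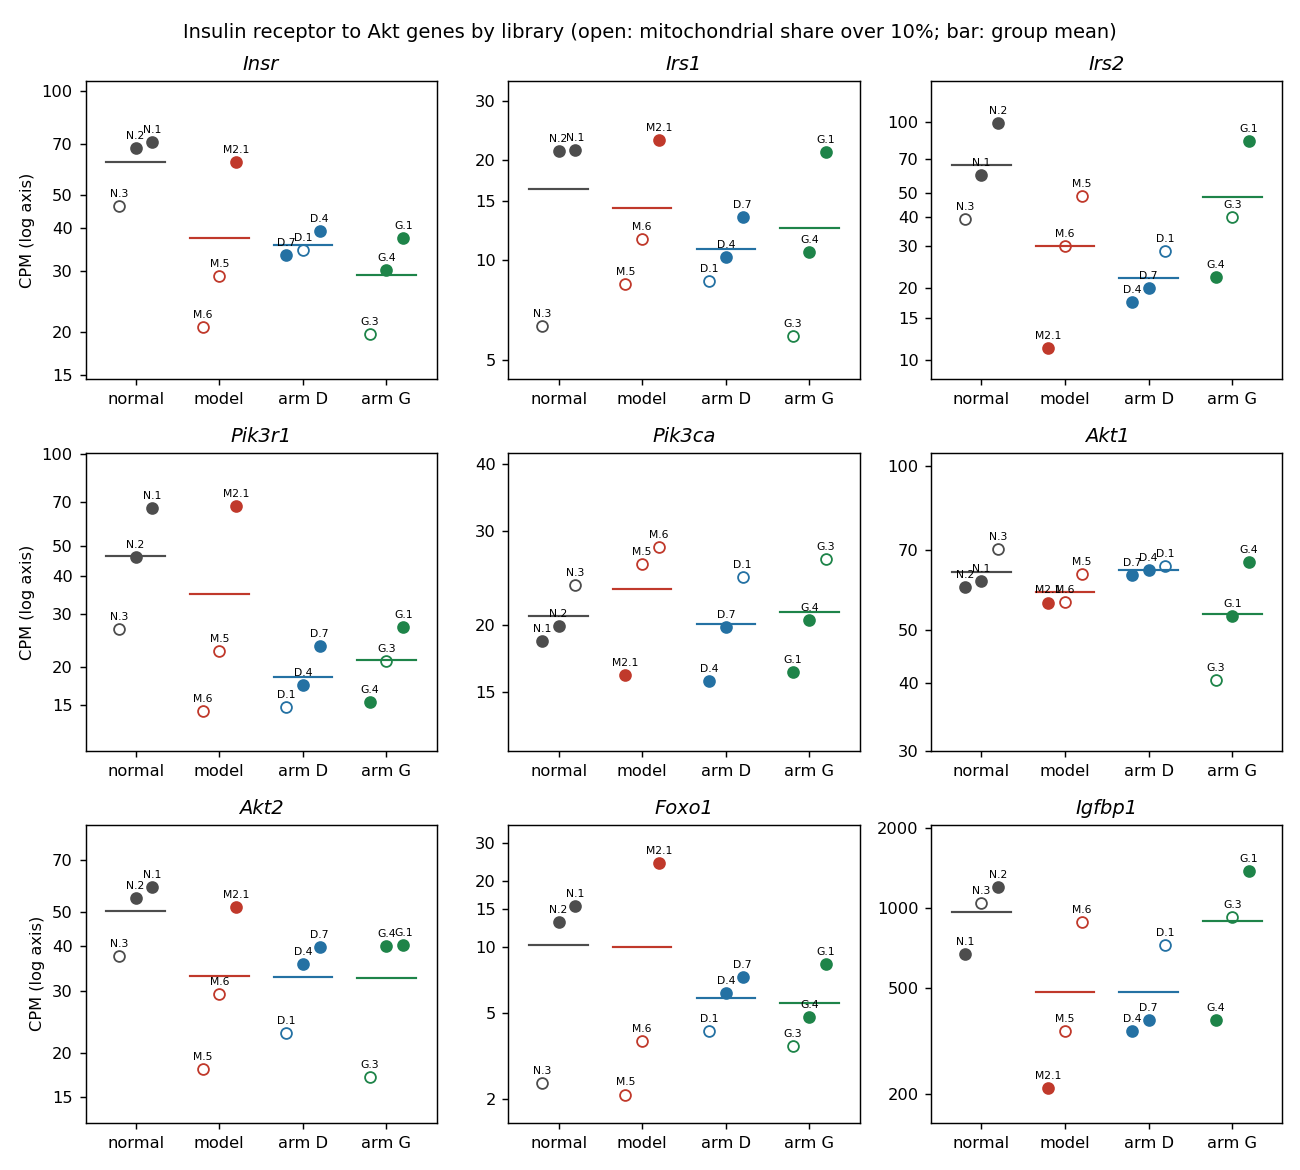
CPM (vertical log axis) of each of the 9 genes in every library, by group on the horizontal axis; bars are group means and open points are libraries with a mitochondrial share over 10%. Insr in all libraries of arms D and G lies below normal, and M2.1 is apart from M.5 and M.6 for Irs2 (11.2 CPM), Pik3r1 (67.5 CPM) and Foxo1 (24.3 CPM).

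Per kilobase of the gene lengths implied by the deposited FPKM values, the order of levels over all 12 libraries was led by Igfbp1 at 461 ± 249 CPM per kb (SD, n = 12), first in every library. Akt1 at 24.9 ± 3.26 and Akt2 at 18.7 ± 6.89 CPM per kb took the second and the third place in every library, in either order, within their spread of each other. Pik3r1 (7.28 ± 4.62), Irs2 (6.40 ± 4.15) and Insr (5.89 ± 2.52) came next and did not differ beyond their spread. Pik3ca (3.33 ± 0.680), Foxo1 (3.09 ± 2.58) and Irs1 (2.52 ± 1.196) had the lowest means on this scale, again within their spread. Single libraries departed from this order: Irs2 ranked from 4 to 9, the last place in M2.1 (1.73 CPM per kb), Foxo1 and Pik3ca from 5 to 9, Insr and Pik3r1 from 4 to 7 and Irs1 from 7 to 9.

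The model group against the normal group addresses the high-fat diet, and arms D and G against the model address didymin given with it. Of the 9 members, 0 had an adjusted p under 0.05 in model against normal by edgeR, beside 0% of all genes tested. At an unadjusted p under 0.05 there were 0 members and 4.91% of genes, and groups did not overlap for 0 members and 10.5% of genes. The members' median log2 fold change was -0.41, with 8 of 9 negative, and the median of all genes was 0.03. DESeq2 also called 0 members there, with 1 at an unadjusted p under 0.05 beside 810 of the 12355 genes. limma-voom with library quality weights called 0, with 5 at an unadjusted p under 0.05 beside 3585 of the 12355 genes.

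For arm D against model, 0 members were called by edgeR (0% of genes), 0 had an unadjusted p under 0.05 (6.28% of genes) and 0 were separated without overlap (12.6% of genes). For arm G against model these were 0 (0%), 0 (2.32%) and 0 (4.69%), and for arm G against arm D 0 (0%), 0 (3.42%) and 0 (7.43%). DESeq2 and limma-voom called 0 members in these 3 comparisons too. DESeq2 had 0, 0 and 1 member at an unadjusted p under 0.05, beside 985, 401 and 616 of the 12355 genes. limma-voom had 0, 1 and 1 member, beside 2479, 1584 and 931 genes. The members' medians were -0.22, -0.15 and 0.07, beside -0.04, 0.00 and -0.01 for all genes. The log2 fold changes furthest from 0 against model were those of Pik3r1 in arm D, at -0.91 ± 0.51 (SE), and of Igfbp1 in arm G. Without M2.1 that value of Pik3r1 was 0.02, and Pik3r1 in arm G moved from -0.72 to 0.20. Foxo1 moved likewise, from -0.79 to 1.02 in arm D and from -0.85 to 0.95 in arm G. Insr went from -0.06 to 0.53 in arm D and from -0.36 to 0.23 in arm G. Akt2 went from -0.01 to 0.47 in arm D and from -0.02 to 0.47 in arm G. Without M2.1 the number of negative members fell from 7 to 3 in arm D and from 7 to 2 in arm G. The direction of these genes under didymin thus depends on that model library. The comparisons with the model share its 3 libraries, as those with normal share the normal libraries.

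Against the normal group, Insr was lower without overlap in both arms. For arm D against normal 0 members were called by edgeR (0% of genes), and 2, Irs2 and Pik3r1, had an unadjusted p under 0.05, beside 6.34% of genes. Insr, Irs2 and Pik3r1 were lower without overlap, 3 of 9 members beside 16.8% of genes in either direction. For arm G against normal 0 were called (0% of genes), 2, Insr and Pik3r1, had an unadjusted p under 0.05 (6.59% of genes), and Insr alone did not overlap, 1 of 9 members beside 10.6% of genes, a share near that of all genes. Insr in arm G was at a log2 fold change of -1.09 ± 0.38 (SE), with an unadjusted p of 0.0138 and an adjusted p of 0.723 by edgeR. With all 9 high-fat libraries against normal, edgeR called 0 members and 11 of 12355 genes (0.089%). Insr, Irs2 and Pik3r1 had an unadjusted p under 0.05, 3 of 9 members beside 6.52% of genes, and 0 members were without overlap, beside 1.77% of genes. Irs2 was there at -1.05 ± 0.43 (SE, adjusted p = 0.735) and Pik3r1 at -0.96 ± 0.39 (adjusted p = 0.735). In these 3 comparisons 8 of 9 members were negative and the medians were -0.80, -0.44 and -0.62, while the medians of all genes were -0.01, 0.01 and 0.02. DESeq2 called 0 members in each, with 2, 2 and 3 at an unadjusted p under 0.05, beside 965, 1098 and 1015 of the 12355 genes.

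**Figure D2:**
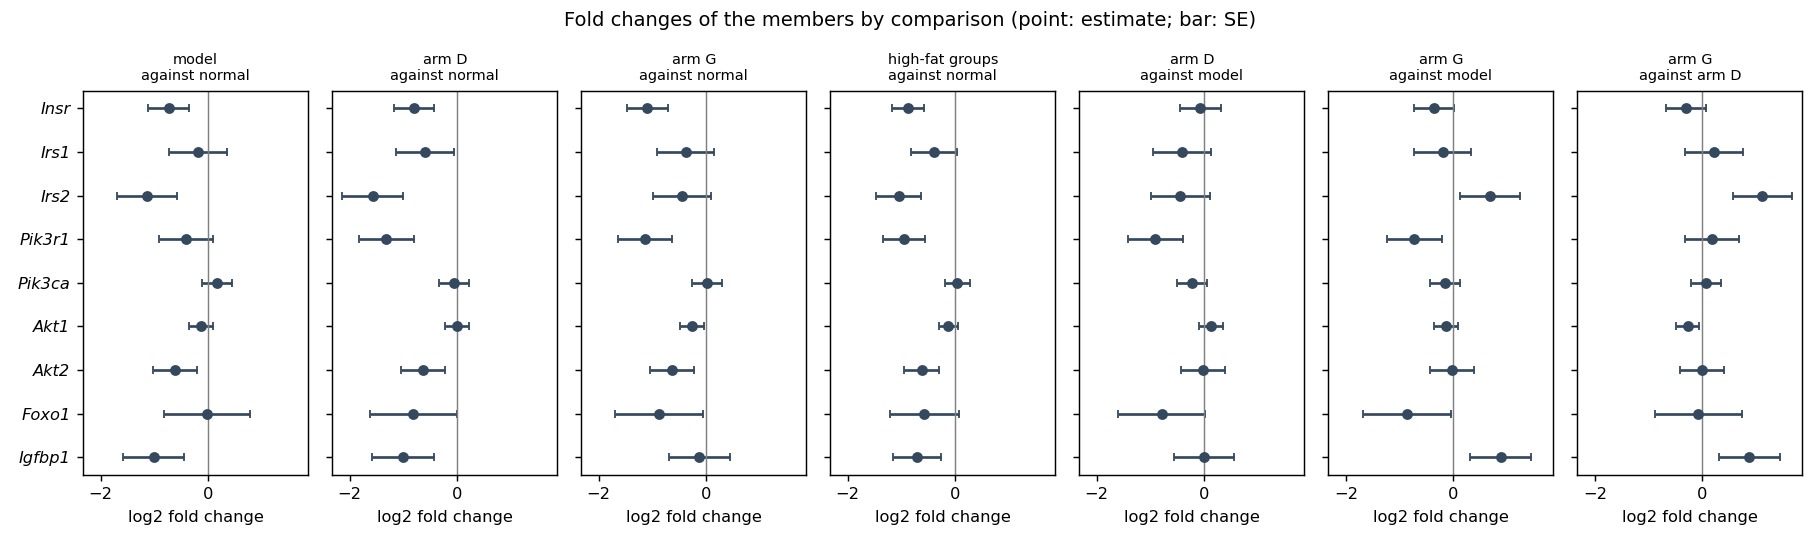
Log2 fold changes (horizontal axis) of the 9 genes (vertical axis) in each of 7 comparisons, with points for edgeR estimates and bars for their SE. Irs2 in arm D lies furthest to the left (-1.57), Insr, Irs2 and Pik3r1 are the lowest in the comparison of all high-fat libraries with normal, and Pik3ca and Akt1 stay near 0 throughout.

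Calls differed by tool. limma-voom was run only with quality weights, and gave G.3 a weight of 0.181, M2.1 0.249 and N.3 0.577, against 3.13 for N.2. The weights and the other differences between the tools cannot be told apart here. limma-voom called Insr (adjusted p = 0.0178), Irs2 (0.0175) and Pik3r1 (0.0208) lower in arm D than in normal, 3 of 9 members beside 941 genes, or 7.62%. For all high-fat libraries against normal it called Insr (adjusted p = 0.0124), Pik3r1 (0.0257) and Akt2 (0.0441) lower, beside 875 genes, or 7.08%. These were the lowest adjusted p-values over all alternatives for those genes, and the highest was 0.9999 in arm D and 0.9996 in the high-fat libraries. Without M2.1, edgeR put Insr in model against normal at -1.33 ± 0.33 (SE, unadjusted p = 0.00156, adjusted p = 0.169), where the alternatives ran from an adjusted p of 0.0711 to 0.9999. In that fit without M2.1, 2561 genes and 4 members had an unadjusted p under 0.05, against 607 genes and 0 members with all libraries. Irs2 was then at -0.75 and Igfbp1 at -0.66, with these nearer 0 while Insr, Pik3r1 and Foxo1 moved away from it. Leaving out M.6 instead put Igfbp1 at -1.80 ± 0.57 (unadjusted p = 0.00855, adjusted p = 0.9997), so its value rests on which model library is left out.

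The mitochondrial share moved with several members. In each of the 4 groups the library with the highest share had the highest Pik3ca of its group. Over all groups Pik3ca was at 23.8 to 28.0 CPM in the 5 libraries over 10% and at 15.7 to 20.4 CPM in the other 7, with no overlap. Foxo1 went the other way, at 2.11 to 4.12 CPM in the 5 and 4.78 to 24.3 CPM in the 7. For Insr, Irs1, Pik3r1, Akt2 and Foxo1 the library of highest share was the lowest of its group in 3 of 4 groups. With a term for a share over 10% in the fit, Insr in the high-fat libraries was at -0.81 ± 0.20 (SE, adjusted p = 0.178, edgeR) against normal and Foxo1 at -0.26 ± 0.39. Summed hepatocyte markers were at 44998.5 to 158330 CPM in arm G and 74382 to 150250 CPM in model, beside 154422 to 189871 CPM in normal and 141865 to 149390 CPM in arm D, all below normal. Sinusoidal endothelial markers (6 of 7 passing) summed to 135 to 203 CPM in model and 205 to 253 CPM in normal, and Kupffer cell markers (8 of 8) to 437 to 1362 CPM in arm D and 451 to 636 CPM in normal. Whether RNA quality or the mix of cells has a part in these values was not tested.

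Likeness across the 12 libraries is given as a description. Irs2 and Igfbp1, both FOXO1 targets, had a Pearson r of 0.79 and a Spearman rho of 0.73 in log2 CPM (n = 12). The r was 0.83 without G.3 and M.6 and 0.67 with group means removed, and 99.9% of genes had a lower r with Irs2. Both were lowest in M2.1 and high in N.2 and G.1. Insr, also a known FOXO1 target, had an r of only 0.16 with Irs2 and of -0.07 with Igfbp1. The other pattern joined Insr, Irs1, Pik3r1, Akt2 and Foxo1, whose 10 pairs had r between 0.66 and 0.90. The lower of these values are common among all genes: 83.7% of genes had a lower r with Insr than Irs1 did, and 89.4% a lower r with Pik3r1 than Akt2 did. Irs1 with Foxo1 was the closest of the 10 pairs (r = 0.90, rho = 0.92), and 99.5% of genes had a lower r with Irs1. Insr with Pik3r1 followed (r = 0.83), and 95.6% of genes had a lower r with Insr. Pik3ca ran against them, at -0.75 with Foxo1 and -0.71 with Akt2. Foxo1 had an r of -0.20 with its target Igfbp1 and of -0.07 with its target Irs2. The points share libraries, depth and mitochondrial share, and no p is given.

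**Figure D3:**
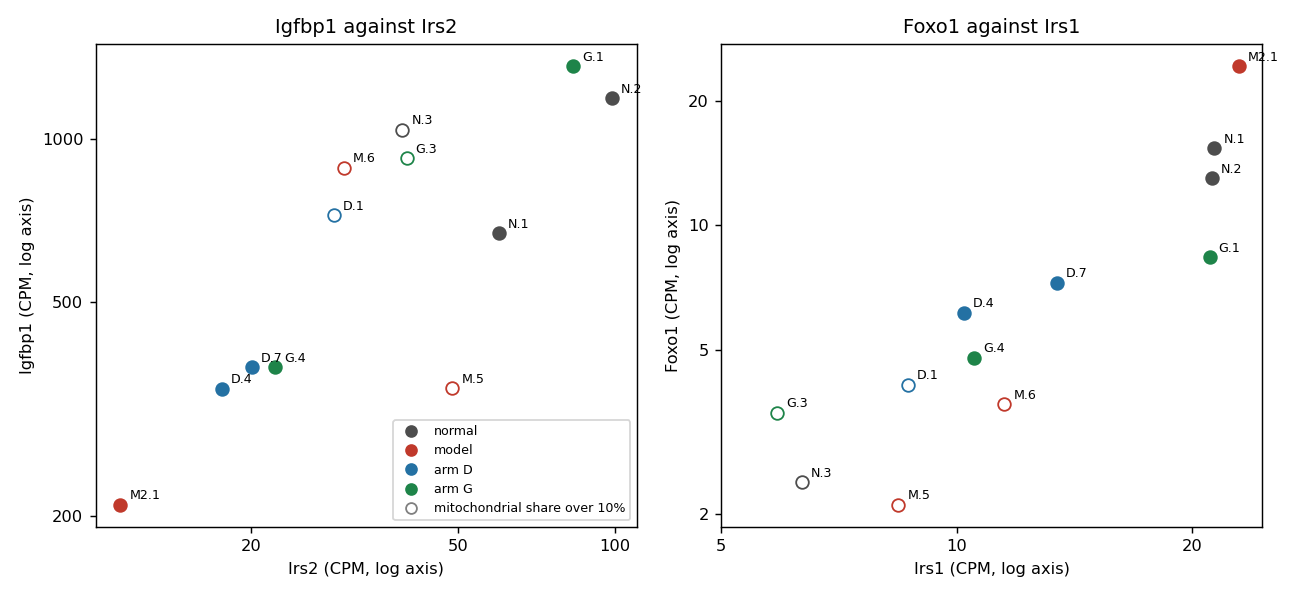
Igfbp1 against Irs2 (left) and Foxo1 against Irs1 (right) in CPM on log axes, with a point for each of the 12 libraries coloured by group and open where the mitochondrial share is over 10%. M2.1 is at the bottom left for Irs2 and Igfbp1 and at the top right for Irs1 and Foxo1.

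**Figure D4:**
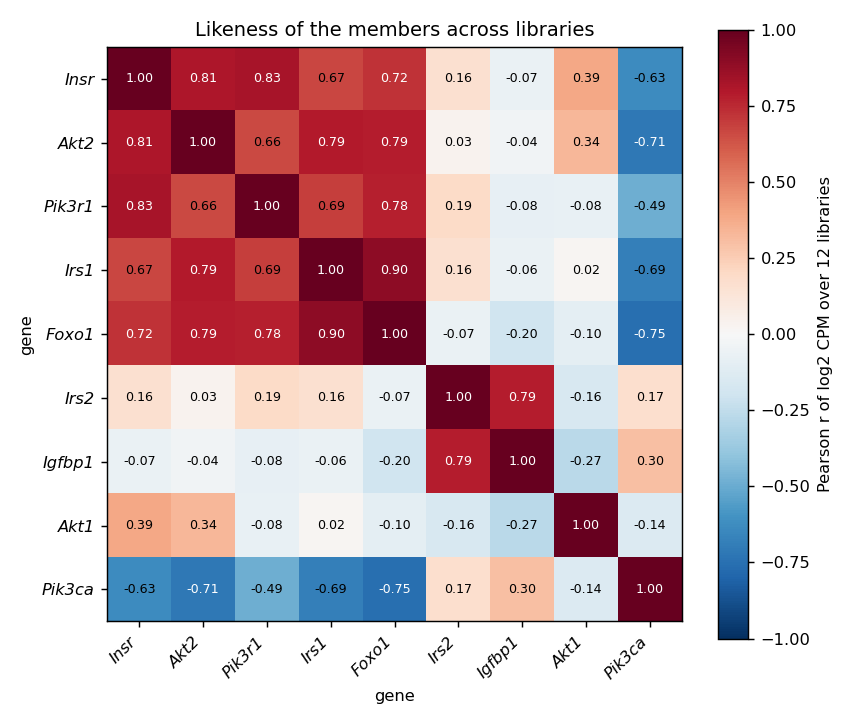
Pearson r of log2 CPM over 12 libraries for each pair of the 9 genes, which form both axes; red is positive and blue negative. Insr, Akt2, Pik3r1, Irs1 and Foxo1 form a block of positive values, Irs2 and Igfbp1 a pair (0.79), and Pik3ca is negative with the block (-0.75 with Foxo1).

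Among all genes tested, those most like Insr were Sel1l (r = 0.96), a part of the machinery that degrades misfolded proteins of the endoplasmic reticulum, Uggt1 (0.96), its glycoprotein folding sensor, and Arhgap35 (0.95). Nearest to Irs2 were Gadd45a (0.84), a stress-response gene, the transcription factor Myc (0.82) and Insig1 (0.81), which holds back the sterol-regulated factor SREBP. Igfbp1 was most like Ppp1r15a (0.87), a stress-induced phosphatase subunit, and then Efcab7 (0.86) and Stmn3 (0.86), both at under 3 CPM. Foxo1 was nearest to Dsp (0.98), Cd2ap (0.97) and Atl3 (0.97), and Irs1 to Rprd2 (0.97), Mbtd1 (0.95) and Zc3h12c (0.94).

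Around the members, 21 of 23 listed genes upstream of Akt were tested, and 0 passed the threshold in any comparison by edgeR (an adjusted p under 0.05). In the high-fat libraries against normal 14 of the 21 were negative, with a median of -0.27 beside 0.02 for all genes, and 2, in opposite directions, had an unadjusted p under 0.05 beside 6.52% of all genes. Sh2b2, an adaptor of the insulin receptor, was at 1.15 ± 0.47 (SE, unadjusted p = 0.0305) and Mtor, the kinase of the complexes above and below Akt, at -0.38 ± 0.16 (unadjusted p = 0.0383). By limma-voom 2 of the 21, Mtor and Pik3cb, were called lower there, beside 7.08% of all genes, and by DESeq2 0. In arm D against normal limma-voom called Pik3cd and Sh2b2 higher and Mtor lower, 3 of 21 beside 7.62%.

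Negative regulators of the pathway were evenly split in model against normal, 12 of 24 in each direction with a median of -0.01, and edgeR, DESeq2 and limma-voom called 0. By edgeR 2 of 24, Socs3 and Ptprf, had an unadjusted p under 0.05, beside 4.91% of all genes. limma-voom called 3 in arm D against normal (Prkcd higher, Phlpp1 and Trib1 lower), beside 7.62% of genes, and 2 in the high-fat libraries (Phlpp1 and Trib1, both lower), beside 7.08%. Socs3, which blocks the receptor's docking sites, was at 1.56 ± 0.445 CPM in model, below every normal library (5.76 ± 2.50; SD, n = 3), with a log2 fold change of -1.89 ± 0.61 (SE, unadjusted p = 0.00884, adjusted p = 0.866, edgeR). Its mean was higher in both arms than in model, at 1.72 ± 0.61 in arm D and 1.79 ± 0.61 in arm G, with adjusted p-values of 0.783 and 0.9997, and D.1 (1.77 CPM) was below M.6 (2.07 CPM). Ptprf, a receptor-type tyrosine phosphatase, was at 340 to 659 CPM in model and 176 to 211 CPM in normal, a log2 fold change of 1.27 ± 0.49 (unadjusted p = 0.0224), and at 138 to 177 CPM in arm D. In arm G it was at 179, 728 and 191 CPM, the high value being G.3, so that the model library M.6 and G.3, of the highest mitochondrial shares, were also the highest for Ptprf.

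Of 17 tested Akt substrates and downstream genes, 0 passed by edgeR, and 10 were negative in the high-fat libraries against normal, 3 of them with an unadjusted p under 0.05, beside 6.52% of all genes. Foxo3, a relative of Foxo1 and likewise an Akt substrate, was at 24.3, 22.4 and 5.59 CPM in normal and at 2.43 to 10.7 CPM in the 9 high-fat libraries, with a log2 fold change of -1.82 ± 0.47 (SE, unadjusted p = 0.00194, adjusted p = 0.354, edgeR). Its adjusted p was 0.0121 by limma-voom and 0.0395 with the mitochondrial term in edgeR. Like Foxo1, it was low in N.3. Acly, which makes acetyl-CoA for lipid synthesis, was at -1.05 ± 0.32 (unadjusted p = 0.00632). limma-voom called 3 of the 17 lower there (Acly, Foxo3 and Tsc1), beside 7.08% of all genes, and DESeq2 0.

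Among the 15 tested genes that insulin represses through FOXO1 in liver, a list that includes Igfbp1, Irs2 and Insr, 12 were negative in the high-fat libraries against normal. Their median was -0.58 beside 0.02 for all genes, and 6 had an unadjusted p under 0.05 and a negative sign, beside 6.52% of all genes in either direction, while 0 passed by edgeR. Ppargc1a, a coactivator of gluconeogenesis, was at 4.61, 3.61 and 0.820 CPM in normal and at 0.180 to 1.03 CPM in the high-fat libraries, with a log2 fold change of -2.07 ± 0.47 (SE, unadjusted p = 0.000771, adjusted p = 0.256). Its value in N.3 lay within the high-fat range, and no high-fat library exceeded 1.03 CPM, so its levels were low. DESeq2 called Ppargc1a (adjusted p = 0.0198) among 87 genes in all. limma-voom called it with 5 others, Insr, Mttp, Pck1, Sesn1 and Trib1, all lower, 6 of 15 beside 7.08% of all genes. Sesn1, a stress-induced inhibitor of mTORC1 signalling, was at 9.32 to 13.4 CPM in model, below all normal libraries (16.1 to 23.6 CPM), with a log2 fold change of model against normal of -0.88 ± 0.26 (unadjusted p = 0.00516). Pck1, the gluconeogenic enzyme PEPCK, was at 4152 ± 1276 CPM in normal and 1869 ± 770 in model (SD, n = 3; log2 fold change -1.15 ± 0.51). G6pc, of the same list, went the other way in arm G, at 1355 ± 725 CPM beside 647 ± 267 in normal (SD, n = 3). Its log2 fold change there was 1.07 ± 0.51 (SE, unadjusted p = 0.0571, adjusted p = 0.723, edgeR), and its highest library was G.3 (2153 CPM). Against model, 9 of the 15 were positive in arm G (median 0.50) and 7 in arm D (median -0.003), where all genes had 0.00 and -0.04.

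Of 11 listed genes that insulin raises in liver, 9 were tested. They had a median of 0.85 in model against normal, with 6 of 9 positive, and 0 passed by edgeR, while 4 positive and 1 negative had an unadjusted p under 0.05, beside 4.91% of all genes. Scd, the desaturase of fat synthesis, was at 77.0, 125 and 88.6 CPM in normal and 1014, 54.0 and 1645 CPM in M.5, M.6 and M2.1 of the model group. Its log2 fold change was 3.22 ± 0.84 (SE, unadjusted p = 0.00224, adjusted p = 0.730), and 3.78 without M.6 (adjusted p = 0.0330, edgeR). DESeq2 called Scd higher, with an adjusted p of 0.00774, and limma-voom called 0 of the list. M2.1, lowest of all 12 libraries for Irs2 and Igfbp1, was the highest for Scd and the lipogenic factor Srebf1 (572 CPM). Insig1 moved the other way, at 193 to 410 CPM in normal and 34.2 to 101 CPM in model. Against model, 8 of the 9 were negative in arm D (median -0.99) and 7 of the 9 in arm G (median -0.84), where all genes had -0.04 and 0.00. Mlxipl, the carbohydrate-responsive factor ChREBP, was at 22.9 to 30.1 CPM in arm D, below all model libraries (52.8 to 109 CPM), with a log2 fold change of -1.49 ± 0.44 (SE, unadjusted p = 0.00501, adjusted p = 0.783, edgeR). Scd in arm G was at -2.64 ± 0.82 against model (unadjusted p = 0.00712, adjusted p = 0.9997, edgeR), but its 92.1 to 194 CPM there lay above M.6 (54.0 CPM). By edgeR 2 of the 9, both negative, had an unadjusted p under 0.05 in each arm against model, beside 6.28% of all genes in arm D and 2.32% in arm G. By DESeq2 and limma-voom 0 of the list were called in either.

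Of 11 insulin-like growth factor and binding protein genes, Igfbp1 among them, 0 passed by edgeR, DESeq2 or limma-voom in model against normal, and 7 were negative (median -0.27). By edgeR 0 had an unadjusted p under 0.05. Igfbp2 was at 98.7 ± 68.0 CPM in normal and 30.6 ± 22.2 in model (SD, n = 3), or -1.69 ± 1.02 (SE) on the log2 scale. Igfbp4 was at 1171 ± 314 and 619 ± 472 CPM, and Igf1, the growth factor itself, at 368 ± 37.5 and 386 ± 88.5 CPM.

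In the authors' deposited table of normal and model, 53 genes had an adjusted p under 0.05 and none of the 9 members was among them. The authors' deposited tables of arm D and arm G with the model had 7 and 1 such genes, again without a member. In the authors' deposited table Irs2 was 1.14 higher in normal than in model on the log2 scale, with a p-value of 0.0416 and an adjusted p of 0.693.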

How the data were processed

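Per the labels' protocols, Trizol served to extract liver RNA and an NEBNext Ultra kit to prepare libraries. The authors deposited 3 tables of 6 libraries each, with raw read counts, FPKM values, and their own log2 fold changes, p-values and adjusted p-values, per the file headers. How reads were aligned and counted, with which strand setting and annotation, is not given in the sources used here. The submitters' processing notes name DESeq2 without a version and the build mm9, a mouse build, although 411 symbols start with RGD or RT1, forms used for rat genes. The tables were joined on gene symbol, and the model counts were identical in all 3. No library repeats the counts of another of its group (chi-square per degree of freedom at least 22.4), which does not show that they come from separate animals. A column shows the letter of a library's group but not its sample. N was taken as normal, M as model, and D and G as the didymin arms, from the letters and the sample titles. FPKM was used only to obtain gene lengths, and 33 other columns with a value per library were not used.

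Counts were filtered with filterByExpr and scaled with TMM. They were tested with edgeR 4.0.16 (R 4.3.3; quasi-likelihood, 1 mean per group over all 12 libraries, 8 residual degrees of freedom), and the fit was tested on simulated data. P-values were adjusted by Benjamini-Hochberg over the 12355 genes, with a threshold of 0.05. Alternatives were DESeq2 1.42.0, limma 3.58.1 with voom quality weights, no filter, nuclear counts only, the 2 compared groups alone, each library left out, and G.3 and M.6 left out together. A term for a mitochondrial share over 10% was chosen after seeing the data. Likeness used log2 CPM with a prior count of 2. Named beside the members are up to 4 genes per list and comparison with the smallest p, and the 3 genes most like a member. Mttp and Tsc1, and other genes named only as called by limma-voom, were chosen after their values were seen. A gene of the lists is counted but not reported here by its values. The members and lists were chosen with earlier results of these data known.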

Additional observations from a re-analysis of the deposited data

How the results depend on the processing

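Over the alternatives, 864 values of the members' 63 log2 fold changes were obtained. Of these, 843 kept their direction and their side of the threshold or changed sign only within 1 SE, 6 passed it newly (all by limma-voom), 0 lost it, 11 changed sign by over 1 SE from a value within 1 SE of 0, and 4 reversed. The reversals, for which the cause was not tested, were of Pik3r1 in arm D and in arm G against model and of Foxo1 in arm G against model. Leaving out each library gave ranges of -1.28 to 0.0161, -1.09 to 0.20 and -1.33 to 0.95, the highest without M2.1, and limma-voom gave Foxo1 0.79. Tsc1 in arm G against model was at 0.0816 by limma-voom and at -1.21 to 0.33 with libraries left out. Members called by limma-voom numbered 3 in arm D and 3 in all high-fat libraries against normal. Numbers of genes called moved more. DESeq2 called 41 in model against normal, 14 in arm D and 5 in arm G against model, 84 and 51 in the arms against normal, 5 in arm G against arm D and 87 in the high-fat libraries. limma-voom called 6 in model, 941 in arm D, 47 in arm G and 875 in the high-fat libraries against normal. Without a filter the calls were 3 in model, 21 in the high-fat libraries against normal and 1 in arm G against arm D. The term for the mitochondrial share gave 35 in the high-fat libraries and 1 in arm G against arm D. Without G.3 and M.6 model against normal had 1, and arm D and normal fitted alone had 2. With each library left out, calls were 0 to 6 in model, 0 to 1 in arm G and 0 to 19 in the high-fat libraries against normal (19 without M2.1, 0 without N.1, N.2 or D.1), and 0 to 1 in arm G against arm D. No paired analysis was possible because the count columns do not carry the replicate numbers of the labels. Groups of 3 libraries and the 4869054 nuclear counts of G.3 limit what can be seen for Foxo1, which had 31 counts there.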
